A study of Mus musculus with 4 samples.

Results

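The genes described here are 10 regulators of the myeloid lineages, the C/EBP factors Cebpa, Cebpb, Cebpd and Cebpe, the factors Spi1 and Gfi1, and the receptor genes Csf3r, Csf2ra, Csf2rb and Csf1r. They were chosen by name, not by a threshold on their values, though with earlier results of these data known, and all 10 were found among the 51912 Ensembl genes measured. RNA was sequenced from 4 libraries of cells sorted from C57BL/6 mice aged 8 to 12 weeks as LT-HSCs (long-term haematopoietic stem cells), which can rebuild blood for the life of an animal. The gate was LSK (lineage-negative, Sca1+, Kit+) without CD34 and Flk2, and every library was a pool of cells from 3 animals. A pair of libraries was wild type (WT replicates 1 and 2), and the other pair lacked Fam122a, which encodes an inhibitor of the phosphatase PP2A (KO replicates 1 and 2). The labels do not say how the knockout was made, in which cells the gene was deleted, or whether the pools were matched for sex. Levels are in FPKM, fragments corrected for the length of the gene and the depth of the library, a unit inferred from the values.

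C/EBP factors and PU.1, the product of Spi1, are DNA-binding proteins that together switch on granulocyte and monocyte genes. GFI1 is a repressor that favours granulocytes over monocytes and also restrains stem cell division. CSF3R, CSF2RA with its shared partner CSF2RB, and CSF1R receive the growth factors G-CSF, GM-CSF and M-CSF. Stem cells are known to carry low levels of several of these RNAs before any lineage choice.

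WT replicate 2 differed widely from the other 3 libraries. Loci that name no gene held 53.9% of its summed FPKM, against 9.14% in WT replicate 1 and 1.74% and 1.81% in the KO libraries. The implied depth of WT replicate 2 was 2500000 fragments, against 4260000 in WT replicate 1 and 6800000 and 5940000 in the KO libraries. Olfactory and vomeronasal receptor genes, which blood cells should not express, measure the background. Their 95th percentile was 2.19 FPKM in WT replicate 1, 15.6 FPKM in WT replicate 2, 0.19 FPKM in KO replicate 1 and 0.22 FPKM in KO replicate 2 (1431 genes). The members were therefore compared between both KO libraries and WT replicate 1, with WT replicate 2 given beside them. That test takes its spread from the KO pair and assumes that the single WT library varies like it. WT replicate 1 also had a higher background than the KO libraries. Of the olfactory and vomeronasal genes, 62.8% were above 0 in WT replicate 1, as in WT replicate 2, against 15% and 16.1% in KO. The part of this background in the differences below, and in the number of genes called lower in KO, was not tested. Fam122a was 18.39 FPKM in WT replicate 1, 7.46 FPKM in WT replicate 2 and listed at 0 in both KO libraries, as their labels say (limma adjusted p = 0.0142 against WT replicate 1). Of the gate genes, Ly6a (Sca1) was 201 to 230 FPKM and Kit 81.7 to 129 FPKM outside WT replicate 2, where Ly6a was listed at 0 and Kit was 2.26 FPKM. Cd34, which the gate leaves out, was 179 FPKM in WT replicate 1, with 87.7 and 62.1 FPKM in the KO libraries. Flt3, the gene of Flk2, which the gate also leaves out, was 26.2 FPKM in WT replicate 1. It was 36.2 and 24.7 FPKM in the KO libraries and 16.1 FPKM in WT replicate 2. Mature neutrophil, B cell and red cell markers were also present in these 3 libraries, so the members' levels are those of the sorted material as a whole. Fewer cells of a type and less RNA per cell cannot be told apart in such bulk values.

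Outside WT replicate 2, all 10 members were above the 95th percentile of the olfactory and vomeronasal genes. Their summed level was 653 FPKM in WT replicate 1, 886 FPKM in KO replicate 1, 803 FPKM in KO replicate 2 and 17.98 FPKM in WT replicate 2. By mean level in KO per unit length, Spi1 came first, followed by Cebpb, Csf3r and Csf2ra, and the KO ranges of these 4 genes did not overlap. Csf1r, Cebpe and Csf2rb came next, with overlapping KO ranges between neighbours. Gfi1, Cebpd and Cebpa were lowest, and their KO ranges overlapped neither each other nor that of Csf2rb. WT replicate 1 gave the same order apart from Cebpe, which stood above Csf1r. Spi1 was above 97.3% of protein-coding genes in WT replicate 1 and above 98.3% and 97.6% in KO, while Cebpa was above 56.3%, 58.2% and 55.7%. The genes with the highest and lowest levels among the 10 thus differed 25.5-fold in WT replicate 1 and 40.2-fold and 38.6-fold in the KO libraries, a ratio of FPKM of Spi1 to Cebpa with no test.

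**Figure D1:**
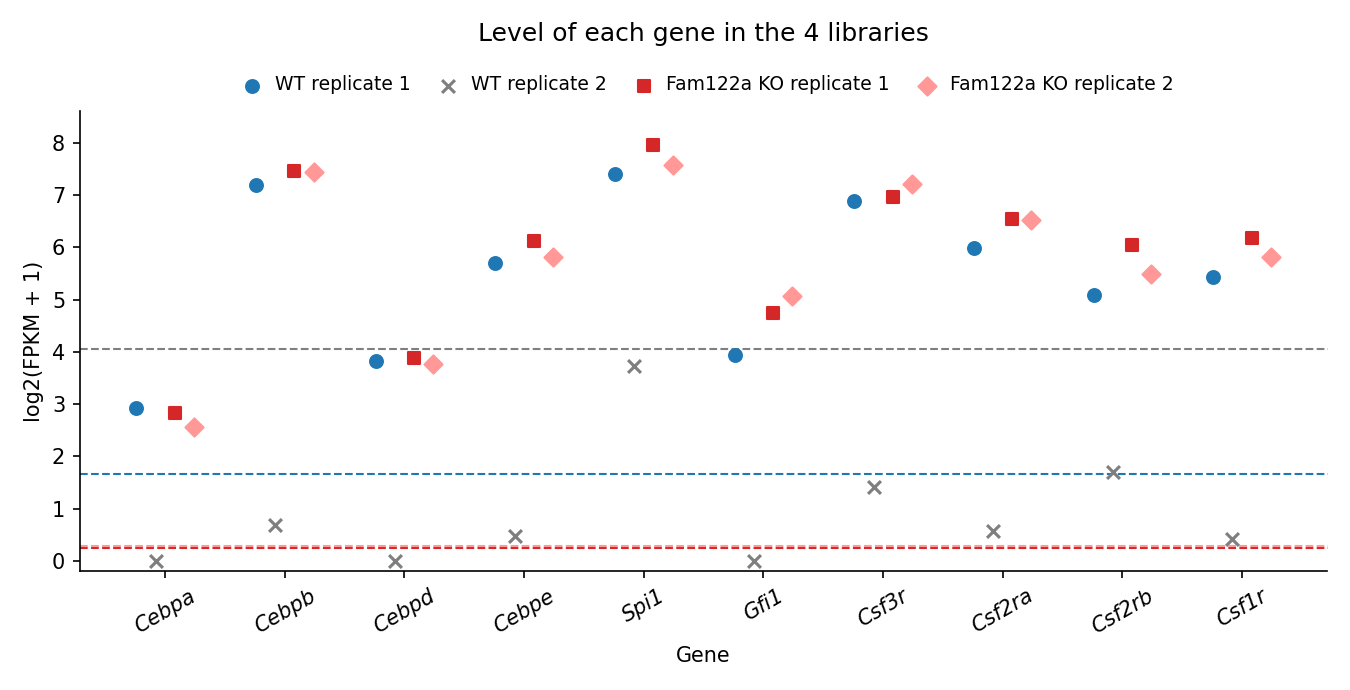
FPKM (log scale) of the 10 members in each of the 4 libraries, with dashed lines at the 95th percentile of olfactory and vomeronasal receptor genes in each library. Points of WT replicate 1 and both KO libraries lie far above their own lines, while all 10 members of WT replicate 2 lie under its line at 15.6 FPKM.

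Across the 10 genes, none passed the test between KO and WT replicate 1. Of 15867 genes tested, limma called 1559 (9.83%), with 72 higher in KO (0.454%) and 1487 lower. Median centring gave 1030 higher and 2322 lower, and quantile normalization 865 and 1716, so the split between directions depends on the scaling. At an unadjusted p under 0.05, Gfi1 and Csf2ra were higher in KO, which is 2 of 10 members against 13.2% of all genes tested, and no member was lower, against 20.2%. Both KO libraries exceeded WT replicate 1 in 8 of the 10 members, against 42.5% of all genes. Both lay below it in Cebpa alone, against 43% of all genes, and they lay on either side of it in Cebpd. The fitted log2 difference was above 0 in these 8 members, against 49.9% of all genes. The members' median difference was 0.31 on the log2(FPKM + 1) scale, beside -0.00212 for all genes tested and 0.08 for protein-coding genes. These shares of all genes depend on the filter for low values. With at least 1 FPKM in at least 2 libraries, 56.1% of 13848 genes were above 0, with a median of 0.12. At an unadjusted limma p under 0.05, 2436 of them were higher in KO and 1596 lower. The members stand less far from these genes than from all genes tested.

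**Figure D2:**
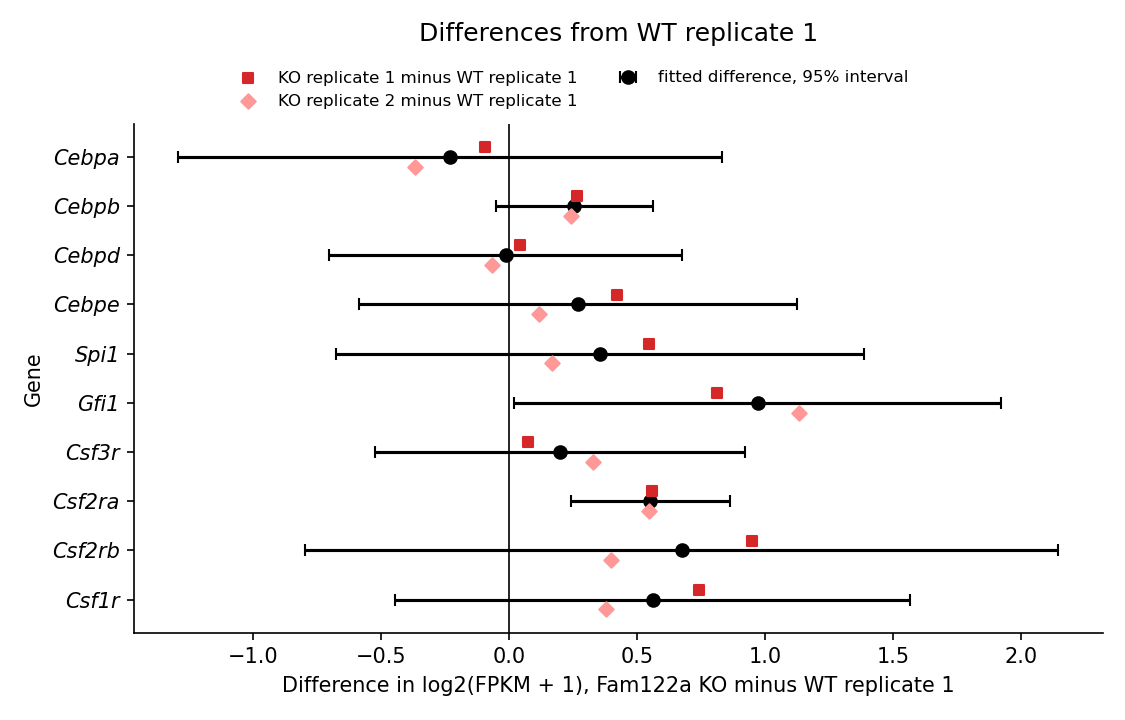
Difference between KO and WT replicate 1 for each member on the log2(FPKM + 1) scale, with the fitted value and its 95% interval in black and each KO library against WT replicate 1 in red and pink. The Gfi1 and Csf2ra intervals lie above 0, and those of the other 8 members cross 0.

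Cebpa (chromosome 7, 35119293 to 35121928, GRCm38, 1 exon) encodes the factor that granulocyte-monocyte progenitors need, and it was the lowest member in these 3 libraries. It was 6.63 FPKM in WT replicate 1, 6.15 FPKM in KO replicate 1 and 4.92 FPKM in KO replicate 2, and it was listed at 0 in WT replicate 2. Both KO libraries were below WT replicate 1, by a log2 difference of -0.23 (SE 0.249, 95% interval -1.29 to 0.83, limma adjusted p = 0.570). Its values rest on about 67, 99 and 69 fragments, and the counting interval of WT replicate 1 alone, 5.12 to 8.39 FPKM, holds the KO replicate 1 value.

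Cebpb (chromosome 2, 167688915 to 167690418, 1 exon) encodes the factor of emergency granulopoiesis and of macrophage genes, and was the most abundant C/EBP member. It was 144.69 FPKM in WT replicate 1, 174.39 FPKM in KO replicate 1, 171.57 FPKM in KO replicate 2 and 0.62 FPKM in WT replicate 2. The KO pair lay close together and above WT replicate 1, at 1.20 times its level, with a log2 difference of 0.26 (SE 0.0723, 95% interval -0.05 to 0.56, limma adjusted p = 0.176). Of the summed FPKM of the 4 C/EBP members, Cebpb made up 67.2% in WT replicate 1 and 66.4% and 70.2% in KO. An overlapping gene on the other strand, Tmem189, shares 18.1% of the 50-base windows of Cebpb, and as the libraries do not mark strand, reads from that stretch cannot be told apart. Tmem189 itself was 30.95 FPKM in WT replicate 1, with 46.7 and 49.05 FPKM in KO.

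Cebpd (chromosome 16, 15887286 to 15891031, 1 exon), an early responder to G-CSF and inflammation, was 13.25 FPKM in WT replicate 1, 13.67 FPKM in KO replicate 1 and 12.61 FPKM in KO replicate 2. WT replicate 1 lay between the KO libraries, and the log2 difference was -0.01 (SE 0.162, 95% interval -0.70 to 0.68, limma adjusted p = 0.964). It was listed at 0 in WT replicate 2. Spidr, on the opposite strand, shares 13.7% of its windows and was 24.81 FPKM in WT replicate 1, with 19.98 and 24.62 FPKM in KO.

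Cebpe (chromosome 14, 54710360 to 54712174), which controls the late granule genes of neutrophils and eosinophils, was 50.86 FPKM in WT replicate 1, 68.52 FPKM in KO replicate 1, 55.27 FPKM in KO replicate 2 and 0.39 FPKM in WT replicate 2. Both KO libraries were above WT replicate 1, but the gap from WT replicate 1 to KO replicate 2 was smaller than that between the KO libraries. The log2 difference was 0.27 (SE 0.201, 95% interval -0.59 to 1.13, limma adjusted p = 0.435).

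Spi1 (chromosome 2, 91082390 to 91115756) encodes PU.1 and was the most abundant of the 10 genes in every library. It was 168.83 FPKM in WT replicate 1, 247.02 FPKM in KO replicate 1, 189.75 FPKM in KO replicate 2 and 12.23 FPKM in WT replicate 2. Both KO libraries lay above WT replicate 1, yet they differed from each other by more than KO replicate 2 differed from WT replicate 1. The log2 difference was 0.36 (SE 0.242, 95% interval -0.67 to 1.39, limma adjusted p = 0.402). Its close relative Spib, expressed in B and plasmacytoid dendritic lineages, was 9.75 FPKM in WT replicate 1, 25.56 and 33.59 FPKM in KO and listed at 0 in WT replicate 2, a KO mean of 3.03 times WT replicate 1 (limma adjusted p = 0.116). B cell markers were split. Of 9, 6 had a log2 difference above 0, against 49.9% of all genes tested, with a median of 1.33. In the other 3, both KO libraries lay below WT replicate 1. The summed level of the B cell markers was 5780 FPKM in WT replicate 1 and 3884 to 6294 FPKM in KO, and none was at 0 in those libraries. The part of B cell RNA in the Spib and Spi1 values was not tested.

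Gfi1 (chromosome 5, 107716657 to 107726036) had the largest fitted difference of the 10. It was 14.34 FPKM in WT replicate 1, 25.92 FPKM in KO replicate 1 and 32.62 FPKM in KO replicate 2, and it was listed at 0 in WT replicate 2. Both KO libraries were above WT replicate 1 by more than they differed from each other, and the KO mean was 2.04 times the WT replicate 1 level. The log2 difference was 0.97 (SE 0.223, 95% interval 0.02 to 1.92), with a limma p of 0.0480 that became 0.147 after adjustment. The counting interval of WT replicate 1, 12.2 to 16.8 FPKM from about 160 fragments, lay below those of KO replicate 1 (23.6 to 28.4 FPKM) and KO replicate 2 (29.8 to 35.6 FPKM). Counting error alone is therefore smaller than the gap, while the spread between WT pools is unknown. Per unit of Spi1, Gfi1 stood at 0.0849 in WT replicate 1, 0.105 in KO replicate 1 and 0.172 in KO replicate 2, a ratio that no linear scaling of a library alters. Its paralogue Gfi1b, a regulator of red cell and platelet development, was 26.91 FPKM in WT replicate 1, with 32.16 and 50.48 FPKM in KO, with a log2 difference of 0.57 (limma adjusted p = 0.413).

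The promoters of the members with the smallest p, Gfi1 and Csf2ra, are shown because each holds a match to a short motif of the C/EBP or PU.1 proteins, which are themselves members. RefSeq windows (GRCm38.p6, 250 bases before to 50 after the start) were at hand for Cebpa, Cebpb, Csf2ra, Csf3r and Gfi1, the last with 2 starts. The C/EBP letters TTGCNNAA were searched on both strands, and 1 of the 6 windows held them, against 10.8% of 32851 windows of the same length. The PU.1 core GAGGAA was in 2 of 6 windows, those of Csf2ra and Csf3r, against 28.3%. Both shares are descriptions of letters, not of binding. The stretches below run 5′ to 3′ towards the start site with the matches in capitals, from chr5:107725806-107725954 and chr19:61228421-61228668, both on the minus strand. The Gfi1 match begins 143 bases before the start, and the Csf2ra matches 14 and 8 bases before it, side by side without overlap.
Gfi1: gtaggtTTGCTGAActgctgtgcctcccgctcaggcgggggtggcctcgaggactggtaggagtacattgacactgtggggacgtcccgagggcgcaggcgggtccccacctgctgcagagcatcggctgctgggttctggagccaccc
Csf2ra: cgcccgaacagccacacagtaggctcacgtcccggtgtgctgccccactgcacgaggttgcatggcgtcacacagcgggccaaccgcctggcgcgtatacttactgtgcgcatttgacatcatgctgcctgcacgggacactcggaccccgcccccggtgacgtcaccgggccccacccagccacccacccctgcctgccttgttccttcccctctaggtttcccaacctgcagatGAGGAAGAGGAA
The last 9 bases of the Csf2ra stretch lie in an exon of the GENCODE annotation, which holds the whole of its nearer match and a part of the other. The match of Csf3r lies 86 bases before its RefSeq start, also within an exon of the GENCODE annotation, and is not printed.

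Csf3r (chromosome 4, 126024550 to 126044440) encodes the G-CSF receptor of neutrophils and their precursors and was the most abundant of the 4 receptor genes in WT replicate 1 and in KO. It was 117.07 FPKM in WT replicate 1, 123.27 FPKM in KO replicate 1, 147.08 FPKM in KO replicate 2 and 1.65 FPKM in WT replicate 2. The counting intervals of WT replicate 1 (111 to 123 FPKM on about 1614 fragments) and KO replicate 1 (119 to 128 FPKM) overlapped, and KO replicate 2 lay above both. The log2 difference was 0.20 (SE 0.169, 95% interval -0.52 to 0.92, limma adjusted p = 0.482). Of the summed FPKM of the 4 receptor genes, Csf3r made up 46.1% in WT replicate 1 and 35.1% and 43.7% in KO.

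Csf2ra (chromosome 19, 61223957 to 61228429), the subunit that gives the GM-CSF receptor its specificity, had the most even KO pair. It was 61.99 FPKM in WT replicate 1, 91.91 FPKM in KO replicate 1, 90.93 FPKM in KO replicate 2 and 0.49 FPKM in WT replicate 2. The KO libraries stood at 1.47 times WT replicate 1, whose counting interval was 56.9 to 67.5 FPKM, and the log2 difference was 0.55 (SE 0.0729, 95% interval 0.24 to 0.86). The limma p was 0.0165 and the adjusted p 0.0919. Without the filter on low values the same difference had an adjusted p of 0.0361, the single setting tried with these 3 libraries under which a member passed.

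Csf2rb (chromosome 15, 78325752 to 78353847) encodes the signalling subunit shared by the receptors for GM-CSF, IL-3 and IL-5. It was 32.96 FPKM in WT replicate 1, 64.61 FPKM in KO replicate 1, 43.78 FPKM in KO replicate 2 and 2.27 FPKM in WT replicate 2. Both KO libraries were above WT replicate 1 and differed from each other 1.48-fold, the widest KO pair of the 10, so the log2 difference of 0.67 had an interval of -0.80 to 2.15 (SE 0.346, limma adjusted p = 0.311). The ratio of Csf2ra to Csf2rb was 1.88 in WT replicate 1 and 1.42 and 2.08 in KO, so WT replicate 1 lay between the KO libraries.

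Eosinophil markers were also higher in KO than in WT replicate 1, in all 6 genes of their list (median log2 difference 2.05, none called by limma), and eosinophils are known to carry these receptor subunits. Their summed level was 1065 FPKM in WT replicate 1, 32.6 FPKM in WT replicate 2, 9927 FPKM in KO replicate 1 and 5371 FPKM in KO replicate 2, with no marker at 0 outside WT replicate 2. KO replicate 1 was above KO replicate 2 in both this sum and Csf2rb, while Csf2ra was level. The part of eosinophil RNA in the Csf2ra, Csf2rb and Cebpe values was not tested.

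Csf2rb has a near-identical neighbour, Csf2rb2 (chromosome 15, 78282507 to 78305721), which encodes the IL-3-specific subunit of the mouse. Over 2628 aligned bases of the coding sequences, 95.2% were identical, and 12.3% of the 50-base windows of Csf2rb transcripts occur elsewhere, nearly all in Csf2rb2. The longest identical run covered 242 bases, from coding base 2083 to 2324 of Csf2rb, and is shown because no read within it can be assigned to either gene. It comes from GENCODE M21 transcripts, in lower case throughout.
Csf2rb and Csf2rb2: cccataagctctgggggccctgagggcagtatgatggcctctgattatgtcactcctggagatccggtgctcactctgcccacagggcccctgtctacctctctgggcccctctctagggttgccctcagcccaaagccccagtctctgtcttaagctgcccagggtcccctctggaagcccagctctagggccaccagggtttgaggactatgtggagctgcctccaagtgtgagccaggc
Csf2rb2 was 5.43 FPKM in WT replicate 1, 8.31 FPKM in KO replicate 1 and 6.12 FPKM in KO replicate 2, with a log2 difference of 0.34 (limma adjusted p = 0.497). In WT replicate 2 it was 69.7 FPKM, far above the 2.27 FPKM of Csf2rb there. The ratio of Csf2rb to Csf2rb2 was 6.07 in WT replicate 1, 7.77 and 7.15 in KO and 0.0326 in WT replicate 2. How the authors' counting split shared reads is not given in the sources used here, so the level of each gene is uncertain.

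Csf1r (chromosome 18, 61100598 to 61132149), the M-CSF receptor of monocytes and macrophages, was 41.99 FPKM in WT replicate 1, 70.99 FPKM in KO replicate 1, 54.89 FPKM in KO replicate 2 and 0.33 FPKM in WT replicate 2. Both KO libraries exceeded WT replicate 1, with a KO mean of 62.94 FPKM and a log2 difference of 0.56 (SE 0.236, 95% interval -0.44 to 1.57, limma adjusted p = 0.258). Of 10 monocyte and macrophage markers, 5 had a log2 difference above 0 and none was called by limma. These 5 were the macrophage genes Adgre1, C1qa, C1qb, Mrc1 and Ms4a7, named after their values were seen, and both KO libraries were above WT replicate 1 in each of them. Adgre1, which encodes F4/80, was 12.12 FPKM in WT replicate 1, with 36.42 and 22.93 FPKM in KO, and the complement gene C1qa was 10.59 FPKM and then 23.31 and 34.12 FPKM. The other 5, Ly6c2, Ccr2, Cd14, Fcgr1 and Cd68, were below WT replicate 1 in both KO libraries. The summed level of the list, most of it Ly6c2, was 3588 FPKM in WT replicate 1, 19.1 FPKM in WT replicate 2, 2759 FPKM in KO replicate 1 and 1976 FPKM in KO replicate 2, and no marker was at 0 outside WT replicate 2. The part of such cells in the Csf1r values was not tested. Hmgxb3, on the opposite strand, shares 14.3% of the windows of Csf1r and was 5.34 FPKM in WT replicate 1, with 8.55 and 10.61 FPKM in KO.

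The genes around these receptors and factors were read from 7 further lists. Of all genes tested, 49.9% had a log2 difference above 0, and 56.1% with at least 1 FPKM in at least 2 libraries. None of the 7 close relatives passed the test (5 with a log2 difference above 0, median 0.34). Among the ligands, Csf3, Il3 and Il5 were listed at 0 in every library, and Csf1, which encodes M-CSF, was 2.81 FPKM in WT replicate 1, 1.92 FPKM in WT replicate 2, with 7.25 and 5.84 FPKM in KO (log2 difference 0.98, limma adjusted p = 0.157). Il34, the other CSF1R ligand, was 0.96 FPKM in WT replicate 1, 20.78 FPKM in WT replicate 2 and listed at 0 in KO, and Il6 was 2.46 FPKM in WT replicate 1, with 1.75 and 1.37 FPKM in KO. Of 8 other haematopoietic cytokine receptors none passed the test (6 above 0, median 0.40). Kit was 81.67 FPKM in WT replicate 1, with 93.51 and 129.46 FPKM in KO, and Flt3 was 26.24 FPKM and then 36.18 and 24.73 FPKM. Both KO libraries lay above WT replicate 1 in Kit, while in Flt3 they lay on either side of it.

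Of 16 genes that carry the receptors' signal, 14 had a log2 difference above 0, against 49.9% of all genes tested, with a median of 0.52. In the other 2, both KO libraries lay below WT replicate 1, against 43% of all genes. Limma called 1 of the 16 higher in KO, against 0.454% of all genes. That gene was Inpp5d, which encodes the phosphatase SHIP1, a brake on PI3-kinase signalling downstream of these receptors. Inpp5d was 50.82 FPKM in WT replicate 1, 53.48 FPKM in WT replicate 2, 136.94 FPKM in KO replicate 1 and 135.66 FPKM in KO replicate 2. The KO libraries lay close together and above WT replicate 1, and the WT replicate 2 value comes from the library with the high background. Its log2 difference from WT replicate 1 was 1.41 (SE 0.0713, limma adjusted p = 0.0340), and with all 4 libraries, where the spread is wider, it was 1.37 (limma adjusted p = 0.491). The call was lost with a filter of at least 1 FPKM in at least 2 libraries (adjusted p = 0.0502) and without an intensity trend (adjusted p = 0.0579). Ptpn6, which encodes the phosphatase SHP-1, was 203.98 FPKM in WT replicate 1, with 277.17 and 232.18 FPKM in KO, and the kinase gene Jak1 was 70.06 FPKM and then 103.19 and 87.11 FPKM, and neither passed.

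None of 16 other regulators of myeloid fate passed (14 above 0, against 49.9% of all genes tested, median 0.43). Myb, which sustains immature progenitors, was 63.28 FPKM in WT replicate 1, with 115.36 and 118.38 FPKM in KO (log2 difference 0.87, limma adjusted p = 0.0608). Irf8, a monocyte and dendritic cell factor named after its values were seen, came nearest at 45.22 FPKM in WT replicate 1, with 92.55 and 92.15 FPKM in KO (log2 difference 1.01, limma adjusted p = 0.0503). The immediate early genes Egr1 and Nr4a1 were 127.56 and 136.45 FPKM in WT replicate 1, with log2 differences of 0.21 and 0.38 that did not pass.

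**Figure D3:**
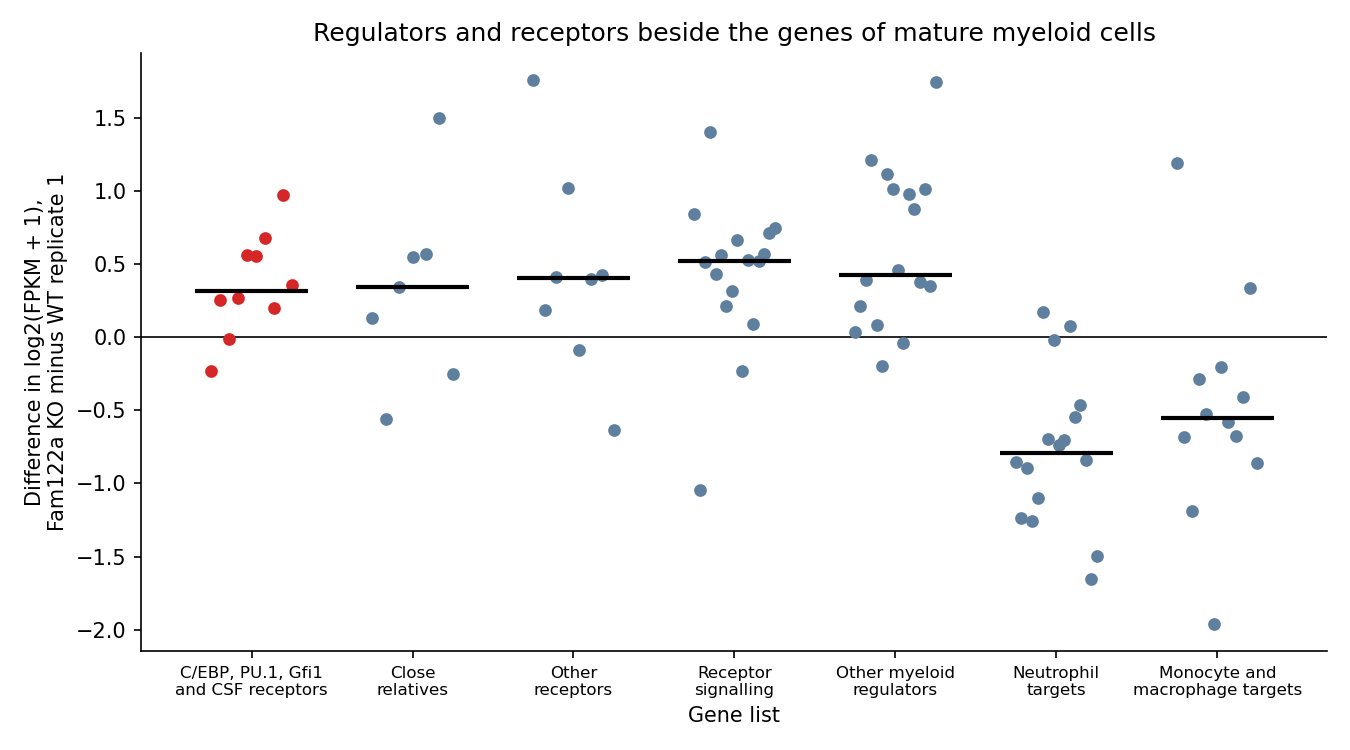
Log2 difference between KO and WT replicate 1 for each gene of the members and of the related lists, with a bar at each list's median. The members and the receptor, signalling and regulator lists have medians of 0.31 to 0.52, while the neutrophil and the monocyte and macrophage target lists have medians of -0.79 and -0.55.

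Most of the listed effector genes that these factors are known to drive had a log2 difference below 0, without a call for any of them. Of 16 neutrophil targets, 14 were below WT replicate 1 in both KO libraries, against 43% of all genes tested. In 2 targets both KO libraries were above it, against 42.5% of all genes. The median log2 difference of the 16 was -0.79, and none passed the test. S100a8, a subunit of the antimicrobial protein calprotectin, was 76353 FPKM in WT replicate 1, 26318 FPKM in KO replicate 1, 22321 FPKM in KO replicate 2 and 165 FPKM in WT replicate 2 (log2 difference -1.66, limma adjusted p = 0.484). Its partner S100a9 was 57183 FPKM in WT replicate 1, with 22418 and 18393 FPKM in KO, and Ngp, a protein of neutrophil secondary granules, was 15829 FPKM and then 11938 and 11067 FPKM. Elane, the elastase gene of promyelocytes, named after its values were seen, was 2815 FPKM in WT replicate 1, with 1178 and 1177 FPKM in KO (log2 difference -1.26, limma adjusted p = 0.0847). Together the 16 genes made up 19.5% of the FPKM of Ensembl genes in WT replicate 1, 10.3% in KO replicate 1 and 9.07% in KO replicate 2. Of 12 monocyte and macrophage targets, 2 had a log2 difference above 0, against 49.9% of all genes tested, and none passed (median -0.55). The list of 10 monocyte and macrophage markers, which shares a part of these genes, had 5 above 0 and a median of -0.03. The median thus depends on which genes are listed. Ly6c2, of inflammatory monocytes, was 3289 FPKM in WT replicate 1, with 2463 and 1721 FPKM in KO. F13a1 was 201.52 FPKM in WT replicate 1, with 211.62 and 144.18 FPKM in KO, and the protease gene Ctss was 182.15 FPKM and then 156.69 and 101.66 FPKM. Mature neutrophil markers, some of which are also on the target list, summed to 150067 FPKM in WT replicate 1, 286 FPKM in WT replicate 2, with 59154 and 50429 FPKM in KO, with none at 0 outside WT replicate 2. The part of such cells in the members' values, Csf3r and Cebpe among them, was not tested.

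Since a few neutrophil genes held that much of WT replicate 1, the members were also compared after rescaling. Equal totals over Ensembl genes, median centring and quantile normalization moved the median of all genes from -0.00212 to 0.21, 0.12 and 0.21. The members' median lay 0.32 above that of all genes as deposited. Scalings that multiply each library by 1 factor leave this distance nearly fixed by construction, so they do not test it. Quantile normalization, which can move it, reduced it to 0.09, with 7 of 10 members above the median of all genes in place of 8. With equal totals, both KO libraries exceeded WT replicate 1 in 9 members, against 52.3% of all genes. Cebpd had a small positive difference under each rescaling (0.05 to 0.21) and Cebpa under quantile normalization (0.23), so no direction is given for these genes. The median of the neutrophil targets lay at -0.79 from that of all genes as deposited and at -0.68 with quantile normalization.

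**Figure D4:**
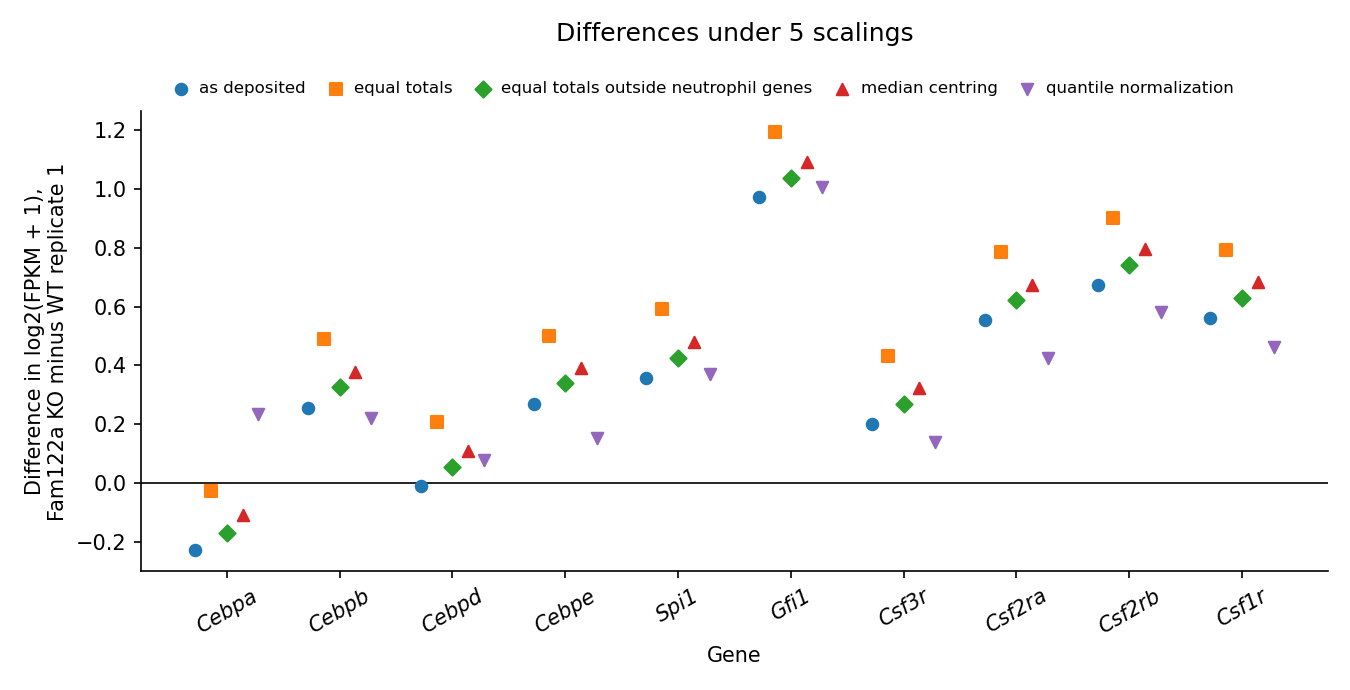
Log2 difference between KO and WT replicate 1 for each member under the 5 scalings, with a line at 0. Gfi1, Csf2ra, Csf2rb and Csf1r stay above 0 throughout, while Cebpa and Cebpd cross it.

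In WT replicate 2 the members' levels were within the background of that library. None of the 10 exceeded the 95th percentile of its olfactory and vomeronasal genes, and Spi1 alone exceeded their 75th percentile of 2.69 FPKM. Cebpa, Cebpd and Gfi1 were listed at 0, as were 5421 of 21870 protein-coding genes there. Cebpb at 0.62 FPKM stood for about 2 fragments, Csf2ra for about 3 and Csf1r for about 4, so their levels cannot be read. With all 4 libraries in the fit, limma called 0 of 20434 genes (0%, none of them higher or lower), and 2482 had an unadjusted p under 0.05, with 118 higher (0.577%) and 2364 lower (11.6%). No member had an unadjusted p under 0.05. All 10 members had a log2 difference above 0, against 46.7% of all genes, from 1.24 for Cebpa to 3.50 for Cebpb, with limma adjusted p between 0.418 and 0.509. Without WT replicate 2 the differences of Cebpa and Cebpd became -0.23 and -0.01, and without WT replicate 1 limma called all 10 members higher and 15953 genes in all. These differences thus rest on which WT library enters.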

How the data were processed

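SMART-Seq v4 libraries of sorted, Trizol-extracted LT-HSC pools were sequenced by the authors, who deposited 1 value per feature and library without a header. The values were taken as FPKM, which the authors' deposited files do not state; the inference rests on totals that differ between libraries and on low values that fall on length-dependent steps. These steps gave the implied depths, with 82.3 to 89.4% of the genes used within 0.1 of a whole number of fragments, so depths and counting intervals (95%, exact Poisson) are estimates that cover counting error only. Per the submitters' processing notes, the tools were HISAT2 2.1.0, STAR 2.7.1a and bcl2fastq and the builds mm10 and GRCm38.p5, with no roles; what computed the values is not given in the sources used here. Of 87703 features, 35791 were MSTRG loci that name no gene and stayed out of the tests.

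The comparison used limma 3.58.1 with an intensity trend (R 4.3.3) on log2(FPKM + 1), which understates changes of low genes, over Ensembl genes with a mean of at least 1 FPKM, with Benjamini-Hochberg adjustment over all of them and calls under 0.05. The main fit held KO replicates 1 and 2 and WT replicate 1; the second held all 4 libraries. Coordinates, exons and coding sequences came from GENCODE M21 (GRCm38), and promoters from RefSeq. Protein identity between the C/EBP members was planned and not run. The members and lists were chosen with earlier results of these data known. Named genes were the members, Fam122a, Csf2rb2 and, per list, called genes and the 3 with the highest mean FPKM; others are said to be named after their values were seen. Values of 1 such gene are left out.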

Additional observations from a re-analysis of the deposited data

How the results depend on the processing

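Between KO and WT replicate 1, no member passed under any alternative except without a filter, where 1 did (Csf2ra). The count over all genes, 1559 in the reported fit, was 701 with a pseudocount of 0.1, 10026 without a filter, 221 with at least 1 FPKM in at least 2 libraries, 3352 with median centring and 2581 with quantile normalization, and the cause of these shifts was not tested. Cebpa turned to 0.23 with quantile normalization. Cebpd turned to 0.21 with equal totals, 0.11 with median centring, 0.079 with quantile normalization, 0.053 with equal totals outside neutrophil genes (an alternative chosen after seeing the data) and 0.042 without KO replicate 2 (-0.066 without KO replicate 1). The other 8 members kept a positive difference, from 0.07 to 1.19. Leaving out a KO library leaves 1 library a group and no test.

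With all 4 libraries, leaving out 1 library gave 0 to 15953 genes called and 0 to 10 members called. The upper values came without WT replicate 1, 1559 genes and 0 members were called without WT replicate 2, and 0 genes were called without either KO library. Cebpa ranged from -0.23 without WT replicate 2 to 2.702 without WT replicate 1, and Cebpd from -0.012 to 3.82. A fit with the replicate number as a block called 0 genes (smallest adjusted p 0.0726) and 0 members. Same-numbered libraries did not deviate together (r = 0.04 over 20434 genes), and with 2 pairs the numbers show no pairing.

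Cebpa and Gfi1 rest on the fewest fragments of the members in WT replicate 1 (about 67 and 160). For Gfi1 the gap to KO was nevertheless wider than counting error. Depth limits nearly all members in WT replicate 2. With a single usable WT library, differences between pools of WT animals cannot be told apart from those between genotypes.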
